A study of Mus musculus with 10 samples.

Results

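The alpha- and pi-class glutathione S-transferases (GSTs) of mouse hepatocytes are described here across 4 genotypes. The members were chosen by gene symbol, with earlier results of these data known, so they are not a blind choice of genes. They are Gsta1, Gsta2, Gsta3, Gsta4 and Gsta13 of the alpha class and Gstp1 and Gstp2 of the pi class. These are 7 of the 21939 genes in the deposited table. All 7 had at least 10 counts summed over the libraries and were among the 13641 genes tested. GSTs couple the tripeptide glutathione to electrophilic compounds, which marks these compounds for export and removal. Hepatocytes hold large amounts of the cytosolic enzymes, of which the alpha, mu and pi classes are the best studied, and the alpha-class enzymes also reduce lipid hydroperoxides. Several GST genes are textbook targets of Nrf2, the transcription factor encoded by Nfe2l2, which binds antioxidant response elements after it escapes Keap1. NF-κB, of which p65 (encoded by Rela) is a subunit, drives inflammatory and survival genes.

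RNA was sequenced from freshly isolated hepatocytes of adult male mice, whose age is given as 8 to 9 weeks without saying whether at injection or at isolation. Control mice were wild-type (C57BL6/j), and the others, of the same genetic background by the study's methods, carried floxed alleles of Nrf2 (Nrf2 KO), of p65 (p65 KO) or of both genes (DKO). All mice, controls included, had received AAV8Cre, an adeno-associated virus with Cre recombinase under the hepatocyte-specific thyroxine-binding globulin promoter, and were killed 12 days later, so that the virus is common to all groups and the deletion is restricted to hepatocytes by the promoter. There were 3 Control, 2 Nrf2 KO, 2 p65 KO and 3 DKO libraries with total counts between 33707165 and 49897382.

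Gene totals include exons outside the floxed parts and are therefore no check of the deletions. Nfe2l2 was higher in the Nrf2 KO (log2 fold change 1.21, adjusted p = 0.00488 by edgeR) and Rela in the p65 KO differed by −0.07 (adjusted p = 0.765), so the genotypes below are those of the labels. Hepatocyte markers were high in every library, with a summed level of 3756736 to 5965004 normalized counts over 9 listed genes. In the p65 KO 8 of 8 Kupffer cell, 8 of 8 sinusoidal endothelial and 7 of 8 stellate cell markers were called higher. Of all 13641 genes tested 689 were. Cholangiocyte markers summed to 596 to 635 there (506 to 648 in Control) and erythroid markers to 3133 to 3516 (3362 to 4674.5). The erythroid sum was mostly Alas2, with means of 3842 in Control and 3259 in p65 KO, and hides the globin genes. Hbb-bs had means of 56.0 in Control, 32.4 in p65 KO and 235 in DKO. Hbb-bt, Hba-a1 and Hba-a2 were likewise lower in p65 KO and higher in DKO, and no globin gene was called. The endothelial sum was 1707 to 2688.5 in DKO and 699 to 1538 in Control. The stellate cell sum was 467 to 1297 in DKO and 274 to 505 in Control. The part of these sums in the members' values was not tested. The Kupffer cell sum was 265 to 742 in Control, 194 to 600 in Nrf2 KO, 3443 to 4771 in p65 KO and 1237 to 2240 in DKO libraries, and its part in the values of p65 KO and DKO libraries was not tested. T, NK and B cell markers summed to at most 22.4 and neutrophil markers to at most 54.9 in any library. In such bulk libraries, less RNA per hepatocyte and fewer hepatocytes cannot be told apart.

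Values are estimated counts scaled between libraries by the trimmed mean of M values (TMM), called normalized counts. Calls required an adjusted p of at most 0.05 together with a change of 1 or more on the log2 scale, up or down. Each fold change is a log2 value with its standard error from edgeR's quasi-likelihood test, and adjusted p-values are Benjamini-Hochberg values over all genes tested.

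The members lie at 3 places in the genome (build GRCm39, GENCODE M39). Gsta4 (chr9:78090056-78117763), Gsta1 (chr9:78137927-78149966), Gsta13 (chr9:78164411-78176451) and Gsta2 (chr9:78238292-78263077, minus strand) form a cluster on chromosome 9, Gsta3 stands alone at chr1:21310806-21335885, and Gstp1 (chr19:4085405-4088068) and Gstp2 (chr19:4090285-4096023) are neighbours on the minus strand of chromosome 19. Each has 7 exons in its canonical transcript. Gsta1 and Gsta13 are close copies that differ at 2 of 672 coding bases, with a stop codon counted. The opening 90 coding bases of both genes are shown because they show how alike the reads of the copies are, with the 1 differing base in capitals.

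Gsta1: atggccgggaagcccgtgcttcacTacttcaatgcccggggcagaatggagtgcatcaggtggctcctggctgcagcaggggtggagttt
Gsta13: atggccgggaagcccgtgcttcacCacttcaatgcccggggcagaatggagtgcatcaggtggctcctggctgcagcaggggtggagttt

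Of the 31-base words in Gsta1 transcripts, 81.8% also occur in Gsta13, and 90.9% of those in Gsta13 occur in Gsta1. Gsta2 is 97.5% identical to Gsta1 over the coding sequence, while Gsta3 is 73.4% and Gsta4 65.5% identical to it. Gstp1 and Gstp2 differ at 12 of 633 coding bases, 6 of them within the 90 bases below, where capitals again mark the differing bases.

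Gstp1: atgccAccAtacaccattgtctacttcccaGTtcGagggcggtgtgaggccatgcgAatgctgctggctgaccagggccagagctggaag
Gstp2: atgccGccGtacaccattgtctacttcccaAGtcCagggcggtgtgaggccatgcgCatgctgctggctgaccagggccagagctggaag

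Of their 31-base words, 35.4% of those in Gstp1 and 52.2% of those in Gstp2 occur in the other gene. How Salmon divided reads between such copies is uncertain, so sums over copies are given with the single genes. Gsta3 shares 0.17% or less of its words with any alpha-class member, and Gsta4 shares none, so the values of both rest on their own reads.

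The core of the antioxidant response element, TGACNNNGC on either strand, was searched upstream of the canonical transcript starts. Within 1500 bases it occurs in 4 of 7 members, namely Gsta1, Gsta2, Gsta13 and Gsta3, and in 37.9% of 21453 protein-coding genes. Gsta1 carries 2 cores in a stretch of 24 bases, and an exact search of the chromosomes that hold the table's genes found this stretch at 4 places, upstream of Gsta1, Gsta13, Gsta5 and Gsta2 in the chromosome 9 cluster. The copies are shown with 3 bases on each side and the cores in capitals because these genes share them outside their exons.

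Gsta1, chr9:78137227-78137256, plus strand: aaaTGACATTGCtaatggTGACAAAGCaac
Gsta13, chr9:78163703-78163732, plus strand: aaaTGACATTGCtaatggTGACAAAGCaac
Gsta5, chr9:78196501-78196530, plus strand: aaaTGACATTGCtaatggTGACAAAGCaac
Gsta2, chr9:78255552-78255581, minus strand: aaaTGACATTGCtaatggTGACAAAGCaac

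The stretch begins 697 bases upstream of the start of Gsta1, 705 of Gsta13, 701 of Gsta5 and 1106 of Gsta2, where it lies in an intron of longer Gsta2 transcripts. Gsta13 has a further core 1256 bases upstream. Gsta5, an alpha-class gene that is not among the members, carries the same stretch but had at most 1.87 normalized counts in any library. The best ungapped match within 1500 bases of Gsta3, Gsta4, Gstp1 and Gstp2 had 15, 13, 14 and 15 of the 24 bases, beside a median of 14 over all genes.

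Gsta3 has cores 945, 546 and 118 bases upstream, the first of them on the opposite strand. The nearest has the letters of the first core in the copied stretch, and the others differ from both of its cores. The nearest and the middle one are printed with 10 bases on each side for comparison with the copied stretch.

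Gsta3, chr1:21310678-21310706: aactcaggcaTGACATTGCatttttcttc
Gsta3, chr1:21310250-21310278: gaacttaggtTGACCTTGCcagcaagttg

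The κB motif was found upstream of Gsta3 (starting 459 bases upstream) and Gsta4 (1046 bases), and in 25% of all genes within 1500 bases. The Gsta4 match, at chr9:78098183-78098192, lies inside the gene bounds given above, because the canonical start of Gsta4 is inside them. For Gsta4 the lack of a core therefore holds for this window only, not for the bases before the whole gene. A match describes letters only and does not show that a factor binds there.

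**Figure D1:**
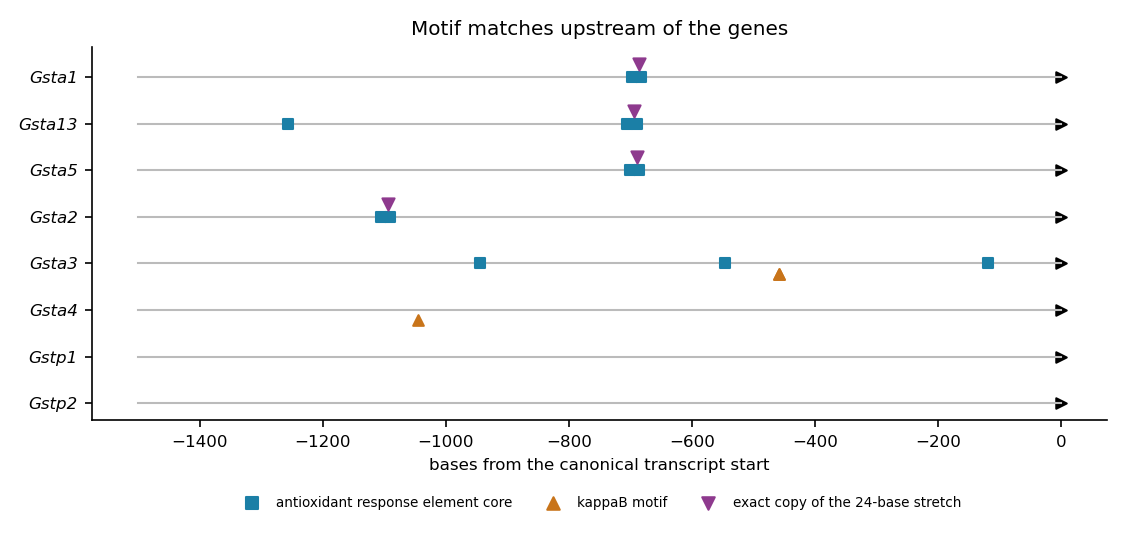
Positions of motif matches in the 1500 bases upstream of the canonical transcript start (x axis, bases; arrowheads mark the start) of the 7 members and Gsta5. Squares are antioxidant response element cores, triangles pointing up κB motifs and triangles pointing down the 4 exact copies of the 24-base stretch, which lie about 700 bases upstream of Gsta1, Gsta13 and Gsta5 and 1106 bases upstream of Gsta2.

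In Control hepatocytes the members spanned a wide range of levels. Per kilobase of the canonical transcript, Gstp1 was at 166763 ± 46393 normalized counts (SD, n = 3) and Gsta3 at 38024 ± 2710. Gsta2 followed at 1740 ± 191, Gsta4 at 1025 ± 39.02 and Gsta1 at 473 ± 49.7. Gstp2 at 282 ± 133 and Gsta13 at 231 ± 50.4 overlapped in their libraries and are not ordered. Gstp1 made up 99.7% to 99.9% of the pi-class sum of every library and Gsta3 90.3% to 97.5% of the alpha-class sum. A class sum is therefore close to the count of its most abundant gene. Together the 7 members held 0.242% to 0.653% of all counts.

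The comparison of Nrf2 KO with Control asks what loss of Nrf2 alone does to the genes. All 7 members were lower in the Nrf2 KO, with every Nrf2 KO library below every Control library, and 5 of 7 were called lower: Gsta1, Gsta2, Gsta13, Gsta4 and Gstp1. Over all genes tested 0.44% were called lower in this comparison and 13.6% had all Nrf2 KO libraries below all Control libraries. The median log2 fold change was −2.31 over the members and 0.0018 over all genes. The calls of Gsta1, Gsta4 and Gstp1 were less firm than those of Gsta2 and Gsta13: without Nrf2 KO 1 their adjusted p-values in edgeR were 0.0703, 0.313 and 0.282, without Nrf2 KO 2 they were 0.232, 0.387 and 0.395, and without Control 1 they were 0.0514, 0.124 and 0.0789. Gsta4 also lost its call without Control 2 or 3, without either p65 KO library and with equal totals, and Gstp1 without Control 2, either p65 KO library, DKO 1 or DKO 2, and when only the 2 genotypes were fitted (0.0649). With limma Gsta1 (0.105) and Gstp1 (0.0515) were not called.

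**Figure D2:**
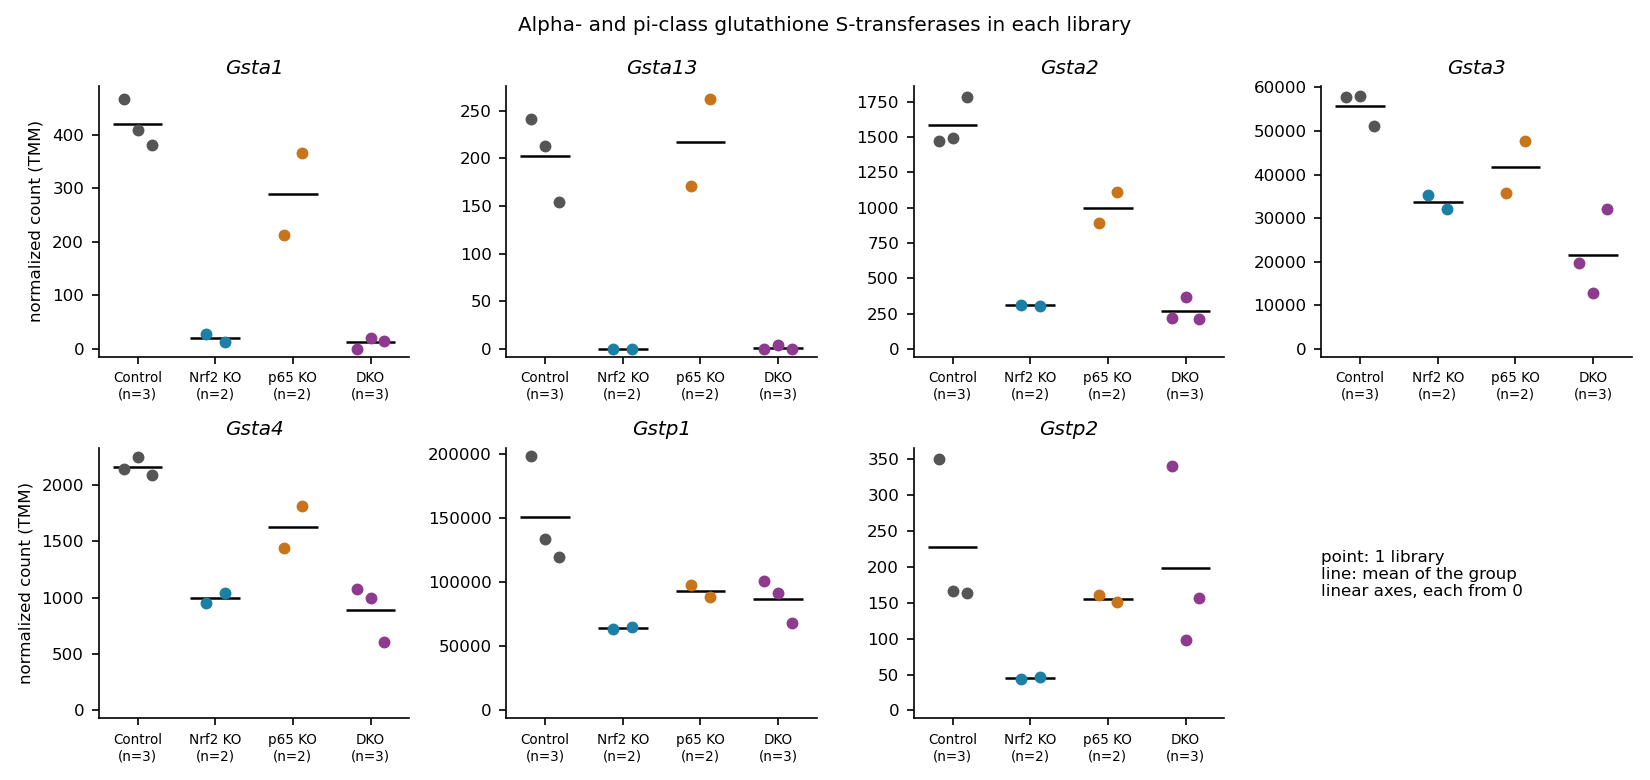
Normalized counts (y axes, linear and from 0, one panel per gene) of the 7 members in every library, by genotype on the x axis. Points are libraries and lines group means. Gsta1, Gsta13 and Gsta2 sit near the bottom in Nrf2 KO and DKO libraries, while Gstp2 is lowest in the 2 Nrf2 KO libraries, at 44.5 and 46.9.

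Gsta1 and Gsta2 encode alpha-class subunits known to be inducible by antioxidants, and Gsta13 is the close copy of Gsta1. Gsta1 had 467, 408 and 381 normalized counts in the Control libraries, 28.7 and 12.1 in Nrf2 KO, 213 and 365 in p65 KO, and 0, 21.3 and 14.9 in DKO. Libraries with intact Nrf2 were thus all above those without it. Gsta1 fell by 4.38 in the Nrf2 KO (SE 0.64, adjusted p = 0.0122, edgeR) and by 5.13 in the DKO (SE 0.59, adjusted p = 0.00133). Single libraries at such low counts moved these values: the Nrf2 KO value was −5.10 without Nrf2 KO 1 and −3.86 without Nrf2 KO 2, and the DKO value was −4.52 without DKO 1 and −5.84 without DKO 2.

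Gsta13 had 241, 212 and 154 normalized counts in Control and 171 and 263 in p65 KO libraries. It was at 0 in both Nrf2 KO libraries and in 2 DKO libraries, and at 4.49 in the library DKO 2. Against a floor of 3 counts per library, Gsta13 was at least 68.2-fold lower in the Nrf2 KO than in Control (adjusted p = 0.00141, edgeR). In the DKO it fell by 6.98 (SE 0.63, adjusted p = 0.000668), a value that rests on 4 raw counts in DKO 2, without which the DKO libraries are all at 0. The p65 KO libraries lay on both sides of the Control libraries, and the difference was 0.10 (95% interval −0.84 to 1.04, adjusted p = 0.895).

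Summing Gsta1 and Gsta13 removes the division of reads between these copies, though not that with Gsta2, with which 44.6% of the words of Gsta1 and 41% of those of Gsta13 are shared. The sum of Gsta1 and Gsta13 was 535 to 708 in Control, 12.1 to 28.7 in Nrf2 KO, 384 to 628 in p65 KO and 0 to 25.8 in DKO libraries. The group means of this sum in the Nrf2 KO and DKO were 3.28% and 2.18% of Control, and the p65 KO overlapped Control at 81.4%. With Gsta2 added, the sum of the 3 genes was 2112 to 2319 in Control, 319 to 339 in Nrf2 KO, 1275 to 1739 in p65 KO and 219 to 396 in DKO libraries. Its means in Nrf2 KO, p65 KO and DKO were 14.9%, 68.4% and 12.7% of Control.

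Gsta2 was the most abundant of the copied genes. Its normalized counts were 1474, 1492 and 1784 in Control, 310 and 307 in Nrf2 KO, 891 and 1112 in p65 KO, and 219, 370 and 212 in DKO libraries. The libraries fell into 3 levels without overlap, with Control highest, p65 KO between, and Nrf2 KO and DKO low and overlapping. Gsta2 fell by 2.36 in the Nrf2 KO (SE 0.24, adjusted p = 0.000999, edgeR) and by 2.57 in the DKO (SE 0.21, adjusted p = 0.000126). In the p65 KO its difference of −0.66 (SE 0.22) had an adjusted p of 0.0637 and was not called.

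Gsta3, the main alpha-class gene of these cells, had its lowest values in the DKO. It had 57825, 58087 and 51088 normalized counts in Control, 35351 and 32160 in Nrf2 KO, 35831 and 47700 in p65 KO, and 19730, 12943 and 32166 in DKO libraries. All libraries of each knockout lay below all Control libraries, but the Nrf2 KO did not pass the test (log2 fold change −0.72, SE 0.30, adjusted p = 0.473, edgeR), and neither did the p65 KO (−0.41, SE 0.30, adjusted p = 0.366). In the DKO it fell by 1.36 (SE 0.27, adjusted p = 0.0176). DKO 3 overlapped the Nrf2 KO libraries, and DKO 1 and DKO 2 were below them. The DKO call was lost without Control 1 (adjusted p = 0.0629), without Control 2 (0.0538) or without DKO 1 (0.0582).

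Gsta4 encodes the alpha-class enzyme that conjugates 4-hydroxynonenal, a product of lipid peroxidation. Its normalized counts were 2141, 2252 and 2091 in Control, 957 and 1042 in Nrf2 KO, 1444 and 1814 in p65 KO, and 1078, 998 and 608 in DKO libraries. Here too the p65 KO libraries lay between Control and the genotypes without Nrf2. Gsta4 fell by 1.11 in the Nrf2 KO (SE 0.21, adjusted p = 0.0427, edgeR) and by 1.27 in the DKO (SE 0.19, adjusted p = 0.0042), and in the p65 KO it differed by −0.41 (adjusted p = 0.199).

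The pi-class genes showed another order of genotypes. Gstp1, the most abundant member, had 198494, 133921 and 119845 normalized counts in Control, 63296 and 65479 in Nrf2 KO, 98039 and 88724 in p65 KO, and 100729, 91371 and 68560 in DKO libraries. The 2 Nrf2 KO libraries were the lowest of all, the DKO libraries overlapped those of the p65 KO, and Control 1 stood above the other Control libraries. Gstp1 fell by 1.23 in the Nrf2 KO (SE 0.23, adjusted p = 0.0419, edgeR), and without Control 1 the value was −0.98. In the p65 KO it differed by −0.69 (SE 0.23, adjusted p = 0.0624). In the DKO it fell by 0.80 (SE 0.20, adjusted p = 0.0435), short of the threshold of 1 on the log2 scale, and without Control 1 by 0.55.

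Gstp2, its low-abundance neighbour, had 351, 166 and 164 normalized counts in Control, 44.5 and 46.9 in Nrf2 KO, 161 and 151 in p65 KO, and 341, 98.7 and 157 in DKO libraries. The Nrf2 KO libraries again were the lowest, and Control 1 and DKO 1 were the highest. The Nrf2 KO difference of −2.31 (SE 0.52) had an adjusted p of 0.0987 and was not called, and that of the DKO was −0.19 (95% interval −1.10 to 0.73, adjusted p = 0.825), which was 0.27 without Control 1 and −0.83 without DKO 1. DESeq2 called Gstp2 lower in the Nrf2 KO (adjusted p = 0.00023), and so did edgeR without DKO 1 (0.0306), without DKO 2 (0.046), with no filter on counts (0.0355) and when only the 2 genotypes were fitted (0.0487).

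**Figure D3:**
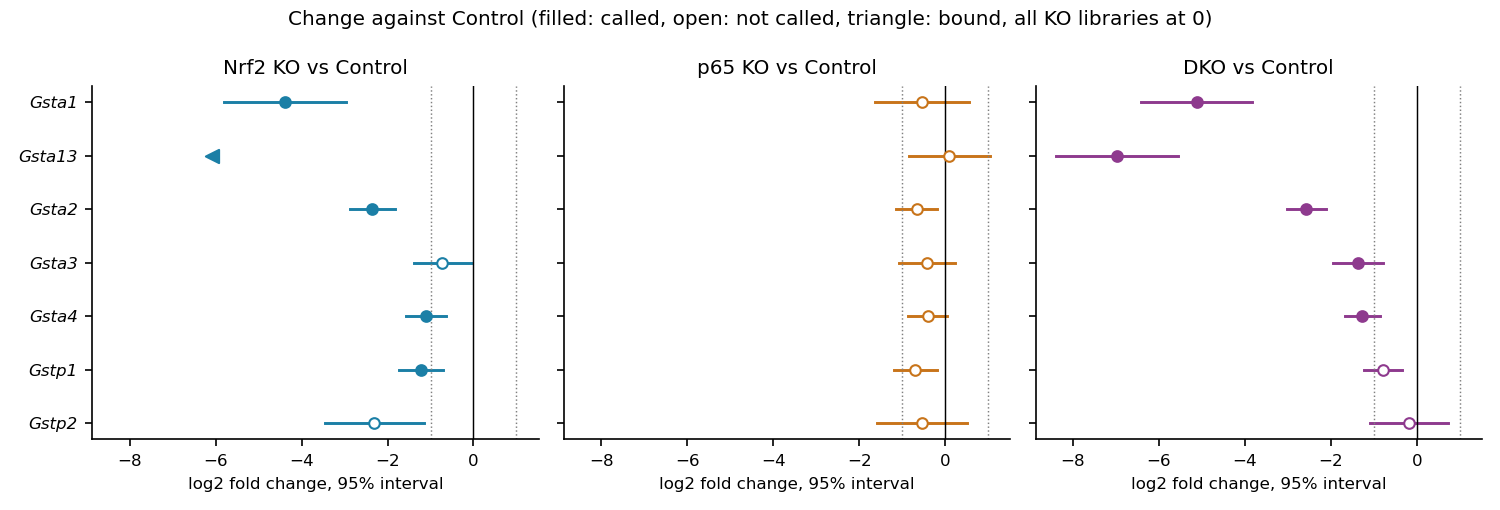
Log2 fold change against Control (x axis) of each member in the Nrf2 KO, p65 KO and DKO, with its 95% interval. Filled points are called, open points are not, dotted lines mark log2 values of 1 and −1 and the triangle is the bound for Gsta13, which was at 0 in both Nrf2 KO libraries. Called members number 5, 0 and 5 from left to right.

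The comparison of p65 KO with Control asks for the effect of p65 loss alone. None of the 7 members was called, and 2 of them, Gsta2 and Gstp1, had an unadjusted p under 0.05 in edgeR. These 2 genes ranked 2437 and 2381 by p among the 13641 genes tested, so p-values this low were common. DESeq2 and limma also called 0. Over all genes 1.54% were called lower in the p65 KO. For 6 of 7 members, all but Gsta13, both p65 KO libraries lay below all Control libraries, beside 23.8% of all genes, and the members' median was −0.53. These differences were small, between −0.69 and −0.41 for the 6 genes, and were seen in libraries with higher Kupffer, endothelial and stellate cell markers. The sum of 8 pericentral hepatocyte markers, of which Glul, Oat and Slc1a2 were called higher, was also above Control there. It was 195779 to 235391, beside 120139 to 131163 in Control and 81496 to 147247 in DKO libraries. Most of this sum was Cyp2e1, with a mean of 169520 in p65 KO and 105187 in Control, which was not called (adjusted p = 0.0612, edgeR). The part of these markers in the members' values was not tested.

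The comparison of DKO with Control covers the loss of both factors. All 5 alpha-class members were called lower, and neither pi-class member was, while 1.02% of all genes were called lower. All DKO libraries lay below all Control libraries for 6 of 7 members, beside 13.2% of all genes, with Gstp2 the exception. The median log2 fold change was −1.36 over the members and 0.0246 over all genes. The sum of 8 periportal hepatocyte markers was 388673 to 561939 in DKO and 220607 to 341814 in Control libraries. Its largest parts were Ass1 and Pck1, with means of 168885 and 154427 in DKO, neither of them called. Sds and Aldh1b1 were called higher, as was Tat of the hepatocyte markers. The part of these markers in the members' values was not tested.

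The class sums put these patterns side by side, without a test. The alpha-class sum was 62148, 62451 and 55498 normalized counts in Control, 36647 and 33521 in Nrf2 KO, 38549 and 51253 in p65 KO, and 21027, 14337 and 33000 in DKO libraries. The group means were 58.4%, 74.8% and 38.0% of Control in Nrf2 KO, p65 KO and DKO, and the DKO mean was lowest. All DKO libraries were below those of both single knockouts, but DKO 3 (33000) was only just below the lower Nrf2 KO library (33521). Gsta3, most of this sum, overlapped between DKO and Nrf2 KO. The share of all genes with such a separation from the Nrf2 KO was not counted. Without Gsta3 the other alpha-class genes summed to 4323 to 4410 in Control, 1296 to 1361 in Nrf2 KO, 2719 to 3553 in p65 KO and 834 to 1394 in DKO libraries, so that Nrf2 KO and DKO overlapped.

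The pi-class sum was 198845, 134087 and 120009 in Control, 63340 and 65526 in Nrf2 KO, 98199 and 88876 in p65 KO, and 101070, 91470 and 68717 in DKO libraries. The group means were 42.7%, 62.0% and 57.7% of Control in Nrf2 KO, p65 KO and DKO. In contrast to the alpha class, the Nrf2 KO was lowest, and the DKO mean was 135% of the Nrf2 KO mean.

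**Figure D4:**
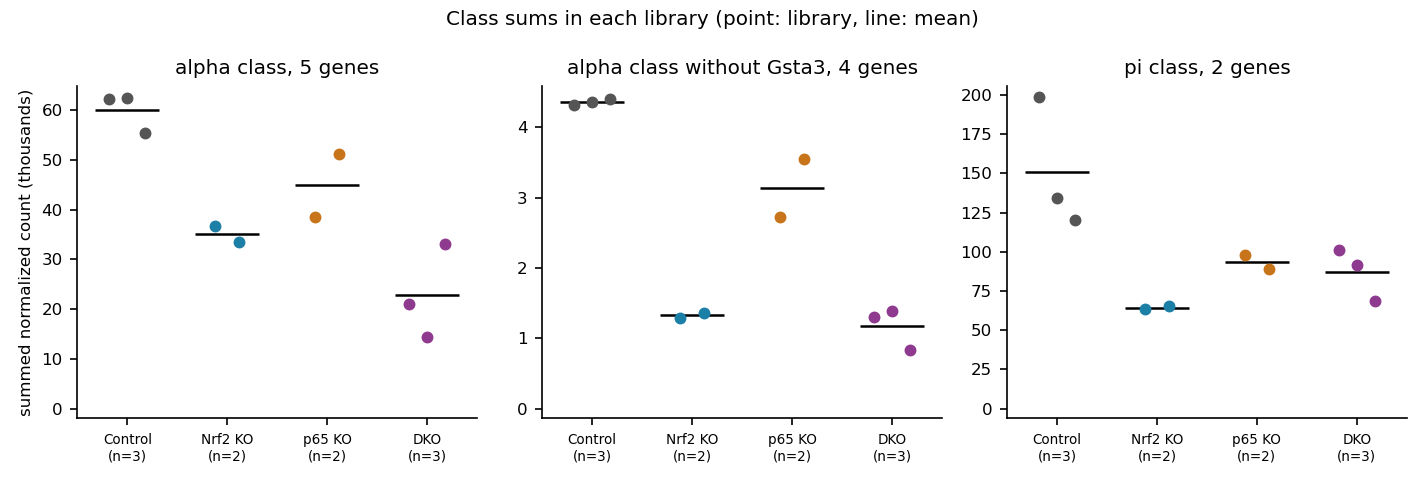
Summed normalized counts (y axes, in units of 1000, linear and from 0) of the alpha class, the alpha class without Gsta3, and the pi class in each library, by genotype on the x axis. Points are libraries and lines group means. DKO libraries are the lowest for the alpha class, with a mean of 38.0% of Control, and Nrf2 KO libraries for the pi class, with 42.7%.

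The ratios to Control can also be set against the product of the single knockouts. For the alpha-class sum the product of the Nrf2 KO ratio and the p65 KO ratio was 0.437 and the DKO ratio was 0.380. For Gsta2 the product was 0.123 and the DKO ratio 0.169, and for Gsta4 they were 0.348 and 0.414. For the pi-class sum the product was 0.264, whereas the DKO stood at 0.577 of Control. For Gstp2 the product was 0.138 and the DKO ratio 0.875. These alpha-class ratios were near the product and the pi-class ratios were above it, though all of them share the 3 Control libraries and no test was made.

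The effect of Nrf2 deletion was then compared between hepatocytes with and without p65, by setting DKO against p65 KO. Here 3 of 7 members, Gsta1, Gsta2 and Gsta13, were called lower, beside 0.968% of all genes, and for the 5 alpha-class members all DKO libraries lay below both p65 KO libraries, beside 20.1% of all genes. Gsta1 fell by 4.59 (SE 0.61, adjusted p = 0.00608, edgeR), Gsta2 by 1.91 (SE 0.22, adjusted p = 0.00206) and Gsta13 by 7.08 (SE 0.65, adjusted p = 0.000908). The Gsta1 value was −3.98 without DKO 1 and −5.31 without DKO 2, and that of Gsta13 again rests on the counts of DKO 2. Gsta4 fell by 0.86 (SE 0.20, adjusted p = 0.0405), under the fold threshold, and Gsta3 differed by −0.95 (SE 0.29, adjusted p = 0.0914). With libraries scaled to equal totals, which moved the median of all genes in this comparison by −0.268, Gsta3 and Gsta4 were called as well, and without DKO 3 Gsta3 was called (adjusted p = 0.012). The pi-class genes had small differences with intervals on both sides of 0: Gstp1 −0.10 (95% interval −0.59 to 0.38) and Gstp2 0.35 (−0.68 to 1.39).

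The interaction, the Nrf2 effect without p65 minus that with p65, tests this difference directly. No member was called in edgeR, beside 0.455% of all genes in either direction, and 2 members had an unadjusted p under 0.05. These were the pi-class genes, Gstp1 and Gstp2, which ranked 379 and 301 by p among the 13641 genes tested. The interaction of Gstp1 was 1.12 (SE 0.32, 95% interval 0.42 to 1.82, adjusted p = 0.17) and that of Gstp2 was 2.66 (SE 0.70, 95% interval 1.11 to 4.21, adjusted p = 0.14). DESeq2 called both (adjusted p = 0.0159 and 0.00567) and limma called 0. For Gsta1, Gsta2, Gsta3 and Gsta4 the interaction lay between −0.23 and 0.45, with intervals that included 0. That of Gsta13 was 3.58 (95% interval −1.02 to 8.18, adjusted p = 0.464, edgeR). With counts of 0 in both Nrf2 KO libraries its size is not determined.

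**Figure D5:**
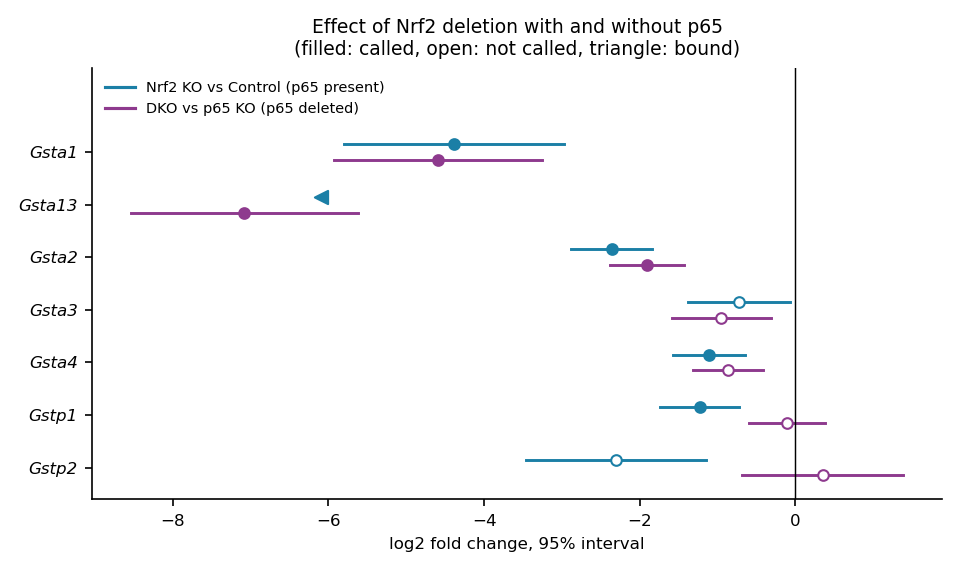
Log2 fold change with its 95% interval (x axis) for loss of Nrf2 when p65 was present (Nrf2 KO against Control) and when it was deleted (DKO against p65 KO), per member. Filled points are called, open points are not, and the triangle is the bound for Gsta13. Both values of Gsta1, Gsta2, Gsta3 and Gsta4 lie close together, while Gstp1 moves from −1.23 to −0.10 and Gstp2 from −2.31 to 0.35.

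The comparison of DKO with Nrf2 KO asks what loss of p65 adds when Nrf2 is absent. No member was called in edgeR, beside 0.433% of all genes in either direction. For 2 members, Gsta3 and Gstp2, the unadjusted p was under 0.05, at ranks 1917 and 233 among the 13641 genes tested. DESeq2 called 1, Gstp2, and limma called 0. Gstp2 was higher in each DKO library than in both Nrf2 KO libraries, with a log2 difference of 2.12 (SE 0.52, adjusted p = 0.114, edgeR). It was 1.48 without DKO 1, and 2.44 and called without DKO 2 (adjusted p = 0.0465). Gstp1 was also above both Nrf2 KO libraries in each DKO library, with a difference of 0.43 (95% interval −0.06 to 0.92, adjusted p = 0.406, edgeR). The share of all genes with such a separation was not counted for this comparison, so the separation alone sets neither gene apart. Gsta3 differed by −0.64 (95% interval −1.28 to −0.01, adjusted p = 0.345), and Gsta2 and Gsta4 by −0.21 and −0.16.

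Among other genes of the pathway, 18 of 20 listed GSTs of other classes were tested, and 3 were called lower in both Nrf2 KO and DKO, all of the mu class. Gstm1 fell by 2.96 in the Nrf2 KO (adjusted p = 0.000219, edgeR), from 107279 ± 10769 (SD, n = 3) to 13798 ± 3156 (n = 2) normalized counts, and by 3.27 in the DKO. Gstm3 fell by 2.97 in the Nrf2 KO and fell by 2.31 in the DKO, and Gstm4 fell by 1.44 and fell by 1.46, respectively. None of the 18 was called in the p65 KO, where Gstm1 differed by −0.71 (adjusted p = 0.0379) and Gstm4 by −0.94 (adjusted p = 0.0192), both under the fold threshold. Over all 18 the median log2 fold changes were −0.23, −0.23 and −0.25 in Nrf2 KO, p65 KO and DKO, and −2.36, −0.41 and −2.57 over the alpha class. The former mix several classes. Of the other mu-class genes, Gstm2 and Gstm6 differed by −1.38 and −0.62 in the Nrf2 KO and Gstm5 and Gstm7 by 0.20 and 0.08, without a call. Gstm1 and Gstm3 fell more than Gsta2 there, so such falls were not particular to the alpha class. The third pi-class gene, Gstp3, differed by 0.85 in the Nrf2 KO (adjusted p = 0.074), with 765 and 741 normalized counts against 336 to 469 in Control, the opposite direction to its neighbours.

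Of 11 genes for glutathione supply, Gclc, the catalytic subunit of glutamate-cysteine ligase, was called lower in all 3 knockouts. It fell by 1.21 in the Nrf2 KO (adjusted p = 0.0179, edgeR), fell by 1.33 in the p65 KO (0.00281) and fell by 2.20 in the DKO (0.00012). Ggct, which cleaves gamma-glutamyl peptides, was called lower in the p65 KO (log2 fold change −1.17, adjusted p = 0.0147) and differed by 0.30 in the Nrf2 KO and −0.30 in the DKO. Of 15 genes for export and processing of conjugates 12 were tested. Abcc3, a basolateral export pump, fell by 4.13 in the Nrf2 KO (adjusted p = 0.0253) and fell by 4.45 in the DKO (0.00304), and Abcg2, a canalicular pump, fell by 1.16 in the Nrf2 KO (0.0253). Abcc1 rose by 2.69 in the p65 KO (adjusted p = 0.0478, edgeR) at a mean of 17.9 normalized counts. The p65 KO libraries had higher Kupffer, endothelial and stellate cell markers, whose part in the Abcc1 value was not tested.

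Of the 14 listed genes of the Nrf2 pathway, 2 were called lower in the Nrf2 KO, Gclc and Srxn1, the sulfiredoxin gene, which fell by 1.32 (adjusted p = 0.00597, edgeR). In the DKO 4 were called lower, Gclc, Srxn1, Nqo1 and Osgin1, while in the p65 KO Gclc was lower and Hmox1, the heme oxygenase gene, rose by 1.44 (0.00198), as did Bach1, a repressor at antioxidant response elements, by 1.04 (0.0123), from 1400 ± 26.1 (SD, n = 3) to 2877 ± 577 (n = 2) normalized counts. Of 13 NF-κB genes, Saa3, an acute-phase gene, fell by 2.99 in the p65 KO (adjusted p = 0.00391, edgeR) and was also called lower in the DKO. Cxcl1, a chemokine gene, rose by 1.69 in the p65 KO (adjusted p = 0.03, edgeR), where its 2 libraries differed widely (787 ± 675, SD). Without a call, Cxcl1 also differed by 1.65 in the Nrf2 KO and by 1.16 in the DKO.

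Neighbouring genes were compared because the members lie in clusters. Of 9 genes tested within 1 Mb of Gsta1 outside the members, Gclc was called lower in all 3 knockouts and Elovl5 in the p65 KO. Of the 101 genes tested within 2 Mb of Gstp1, 0, 2 and 4 were called in Nrf2 KO, p65 KO and DKO, where 0.55%, 6.59% and 2.38% of all genes were called in either direction. Rela lies 1.60 Mb from Gstp1 on chromosome 19.

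The genes most like the class sums over the 10 libraries were ranked by Pearson's r of log2 normalized counts among 10177 genes, as a description, since the libraries of a genotype share it. For the alpha-class sum these were Tdrp (r = 0.984), Gstm6 (0.962), Ces2e (0.96), Htatip2 (0.959) and Aldh2 (0.958). For the pi-class sum they were Slc22a30 (0.946), Creld1 (0.902), Slc25a17 (0.902), Fth1 (0.9) and Gpat3 (0.896). Between the members r was highest for Gsta2 and Gsta13 (0.962) and lowest for Gsta1 and Gstp2 (0.142), and the neighbours Gstp1 and Gstp2 had r = 0.755.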

How the data were processed

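Salmon 1.10.3 with GRCm39 is named in the submitters' processing notes. The labels give a stranded mRNA library kit and the study's methods single-end reads. The authors deposited 1 table of estimated counts, which holds whole numbers only. It is named as normalized, but its column totals differ as raw counts do, and it was used as counts. Genes with at least 10 counts summed over 10 libraries were tested in edgeR 4.0.16 (quasi-likelihood, TMM, R 4.3.3), with all 4 genotypes sharing the spread. Standard errors and 95% intervals were derived from its F statistics. DESeq2 1.42.0 and limma 3.58.1 (log2 of normalized count plus 1), other scalings, other filters, a replicate block and leaving out each library were alternatives. The study counts the libraries as mice, and replicates differed beyond counting noise (chi-square per degree of freedom 44.8 to 204). Counting error is small at these depths except for Gsta1, Gsta13 and Gstp2, and the floor of 3 counts covers counting error only. On simulated counts with 4-fold changes, 99.5%, 97.5% and 98% of 200 changed genes were called for Nrf2 KO, p65 KO and DKO against Control. They were among 13494, 13502 and 13494 genes, of which 5, 8 and 13 unchanged ones were also called. The changed genes were drawn from the more abundant ones. Smaller changes, such as those of Gsta3, Gsta4 and Gstp1, were not simulated.

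The members and lists were chosen with earlier results of these data known. All members are named. Of each list, genes called against Control were to be named (at most 5, by lowest adjusted p), as were the 5 genes most like each class sum. Kupffer, endothelial and stellate cell markers are given as counts and sums instead, and Nqo1 and Osgin1 were named beyond the 5 of their list, after their values were seen. The search to 1500 bases was set after the copy near Gsta2 was seen 106 bases beyond 1000. Gsta5 and Gstp3 were named after their values were seen. Sequences were read from GRCm39 with GENCODE M39, in which 21926 of 21939 gene identifiers were found. The κB motif and antioxidant response element core were searched on both strands, and the matches of the κB motif on both strands of Gsta3 overlap.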

Additional observations from a re-analysis of the deposited data

How the results depend on the processing

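Gsta2 and Gsta13 were called lower in the Nrf2 KO, the DKO and the DKO against p65 KO under all 19 alternatives, and Gsta1 in the latter 2 comparisons. In the p65 KO 0 members were called under every alternative. The members called in Nrf2 KO against Control numbered 5, but 6 with DESeq2's Wald test or no filter, 4 with equal totals, 3 with limma, and 2 to 5 when 1 library was left out (2 without Control 1, Nrf2 KO 1 or Nrf2 KO 2, and 3 without Control 2, p65 KO 1 or p65 KO 2). DKO against Control gave 4 to 5 and DKO against p65 KO 3 to 4 when 1 library was left out, the latter 5 with equal totals. DESeq2's Wald test called 1 member in DKO against Nrf2 KO, where leaving out 1 library gave 0 to 1, and 2 in the interaction, where it gave 0 throughout. Scaling to equal totals moved the median log2 change of all genes by 0.177 in the p65 KO and −0.27 in the interaction, and the interaction of Gsta4 became −0.017. Leaving out 1 library turned the sign of uncalled values, which then ranged from −0.83 to 0.27 for Gstp2 and DKO against Control, −0.28 to 0.68 for Gstp2 and −0.22 to 0.046 for Gstp1 and DKO against p65 KO, −0.24 to 0.38 for Gsta13 and p65 KO, −0.31 to 0.0612 for Gsta4 and DKO against Nrf2 KO, and, in the interaction, −0.92 to 0.50 for Gsta1, −0.10 to 4.17 for Gsta13 and −0.62 to 0.0347 for Gsta3. The causes of these changes were not tested. The log2 ratios of class sums moved by less than the pooled replicate SD (0.373 alpha, 0.280 pi) in all 130 cases. This bound widens with the scatter itself, so no conclusion is drawn from it. Leaving out 1 library, the alpha-class ratio ranged from −1.76 to −1.15 for DKO against Control. For DKO against Nrf2 KO it ranged from −0.98 to −0.38. The pi-class ratio of DKO against p65 KO ranged from −0.22 to 0.047.

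Whether replicate numbers pair the samples could not be decided from the libraries' deviations within their genotypes. These correlated between −0.235 and 0.114 over 13 same-numbered pairs, and between −0.17 and 0.235 over 24 differently numbered pairs. The deviations of the Nrf2 KO libraries mirror each other, as do those of the p65 KO libraries, so the correlations are not independent. With a replicate block the members called were 5, 0, 5, 0, 3 and 0 in the 6 tests, as without it, the value of Gsta13 in the p65 KO was −0.16 and that of Gstp1 in DKO against p65 KO was 0.0359. Over all genes, calls ranged from 18 to 135 in Nrf2 KO (75 in the reported fit), 325 to 1074 in p65 KO (899), 147 to 534 in DKO (325), 18 to 296 in DKO against Nrf2 KO (59), 70 to 504 in DKO against p65 KO (243) and 8 to 249 in the interaction (62). Depth limits Gsta13, at 0 counts in 4 libraries, and Gsta1, at 0 in 1.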
